A study of Mus musculus with 2 samples.

Results

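Brown adipocyte nuclei were picked out of droplet single-nucleus RNA sequencing of mouse aorta, taken from the ascending part and the arch, by their own transcripts. A barcode with at least 300 detected genes was taken as brown when it held 2 or more unique molecular identifiers (UMIs, one per captured RNA molecule) over Adipoq, Plin1 and Plin4, and 5 or more over Ucp1, Cidea, Ppara and Ppargc1b. The latter sum also had to exceed the white adipocyte sum over Cyp2e1, Retn, Trhde and Slc7a10 and the smooth muscle sum over Myh11, Acta2 and Lmod1. This gave 2051 nuclei of 39516, with 1189 of 18863 in the Female library (6.30%, exact binomial 95% interval 5.96 to 6.66) and 862 of 20653 in the Male library (4.17%, 3.91 to 4.46). White adipocyte nuclei, with 2 or more of the shared adipocyte UMIs, 5 or more white UMIs and more white than brown ones, numbered 390 and 564. Brown nuclei made up 75.3% (73.1 to 77.4) of the brown and white nuclei together in the Female library and 60.4% (57.9 to 63.0) in the Male library. All intervals cover counting error only.

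Every animal, of either sex, carried Wnt1-Cre, whose driver is active in the embryonic neural crest, together with Rosa26-mTmG. That reporter switches from tdTomato to GFP once Cre has acted in a cell or in one of its ancestors. The labels give no age and no treatment, and no animals without these alleles were part of the study. Tissue of several animals of a sex went into 1 library, so no value can be assigned to an animal and sex and library cannot be told apart. Neither the sexes nor the classes were tested, since there were no replicate libraries and the brown and white classes were cut from the same transcripts that were then compared. Every difference below describes these 2 libraries.

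Brown adipocytes burn fatty acids to make heat. Their mitochondria carry Ucp1, which lets protons re-enter the matrix without making ATP, and noradrenaline switches the process on through adrenergic receptors and cAMP. White adipocytes store triglyceride and release it on demand. In the mouse, the fat around the thoracic aorta is known to be largely of the brown kind.

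The label came with 5 markers, of which all but Pank1, a pantothenate kinase of coenzyme A synthesis, were part of the rule. Ucp1, on chromosome 8 at 83290352 to 83298452 of GRCm38, had 2384 and 1206 UMIs in Female and Male brown nuclei. Its level was 255 and 174 CPM (the gene's UMIs per 1000000 UMIs summed over the nuclei of a class) in brown nuclei and 3.35 and 3.88 CPM in white nuclei. A Ucp1 UMI was seen in 51.7% of Female (48.8 to 54.6) and 44.0% of Male brown nuclei (40.6 to 47.4), and in 1.79% and 2.30% of white nuclei. Endothelial barcodes, which should lack Ucp1, held one in 0.740% and 0.517%, at median depths of 3273 and 3199 UMIs against 7357 and 7583 in brown nuclei. With each nucleus thinned to 1000 UMIs, the shares were 19.1% and 13.4% in brown, 0.257% and 0.539% in white and 0.327% and 0.207% in endothelial nuclei. The thinned white shares rest on very few of 389 Female and 557 Male nuclei, too few to place them above or below the endothelial shares. A brown nucleus without a Ucp1 UMI cannot be read as lacking the gene. Cidea, a lipid droplet protein, was found in 97.9% and 96.98% of brown nuclei, and also in 69.0% and 61.0% of white nuclei. Pank1 stood at 1158 and 928 CPM in brown against 151 and 139 CPM in white nuclei. It was found in 91.8% and 89.3% of brown and in 49.0% and 40.6% of white nuclei. For the rule's own genes a level above that of white nuclei was fixed by the choice of nuclei and says nothing for the label. Pank1 was the 1 marker of the 5 that the rule did not use, but it was given with the rule and was not an independent check.

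**Figure D1:**
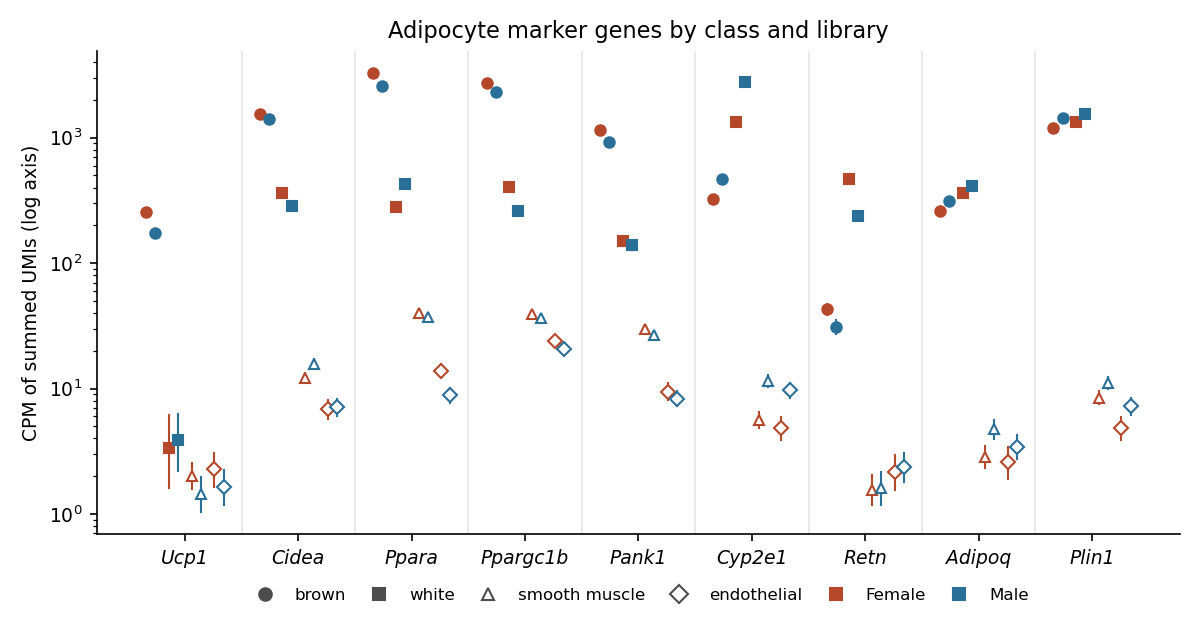
CPM of summed UMIs (log axis) for marker genes in brown, white, smooth muscle and endothelial barcodes, coloured by library, with lines for the 95% counting interval. Ucp1 stood at 255 and 174 CPM in Female and Male brown nuclei and at 3.35 and 3.88 CPM in white nuclei, while Plin1 had 1195 and 1442 CPM in brown and 1337 and 1555 CPM in white nuclei.

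The adipocyte barcodes formed a range on the rule's own sums. These barcodes had 2 or more adipocyte UMIs and 5 or more brown and white UMIs together. The larger of the brown and white sums also had to exceed the smooth muscle sum. The brown sum exceeded 90% of both together in 57.2% of Female and 42.3% of Male barcodes. It stayed under 10% in 2.37% and 7.92%, and 40.4% and 49.8% lay between these ends. The median brown nucleus held 52 brown and 1 white rule UMIs in the Female library and 44 and 1 in the Male library. White rule UMIs were absent from 42.0% and 44.4% of brown nuclei and reached 5 or more in 23.9% and 28.8%. In the latter nuclei a Ucp1 UMI was found in 31.0% and 28.6%, against 60.9% and 52.5% of brown nuclei without white UMIs. The white class was mixed too, since 248 of 390 Female and 306 of 564 Male white nuclei held 5 or more brown rule UMIs. Asking for a sum 3 times the other left 152 and 359 white nuclei and 1055 and 736 brown nuclei, and brown against white values below are between classes that share part of a range. At the edge of the rule, 22 Female and 18 Male members had 5 or 6 brown UMIs, with Ucp1 in 9.09% and 11.1% of them. Just outside it, 15 barcodes in each library had 3 or 4, with Ucp1 in 20% and 6.67%. Brown and white sums were equal in 14 and 9 barcodes, which joined neither class.

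**Figure D2:**
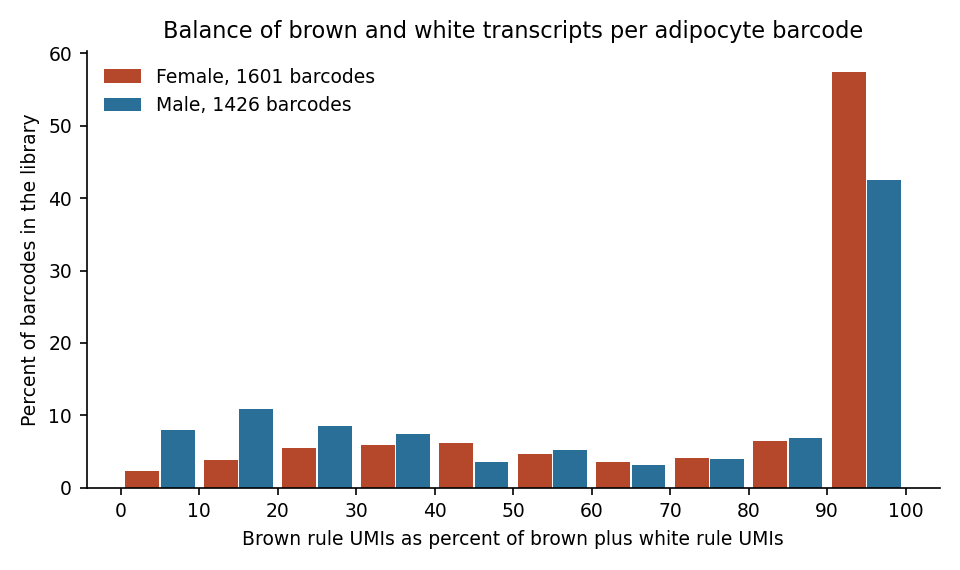
Percent of adipocyte barcodes in each library (y axis) by the share of brown among brown plus white rule UMIs (x axis, bins of 10 percentage points), for 1601 Female and 1426 Male barcodes. The bin from 90 to 100% is the tallest in both libraries, with 920 Female and 606 Male barcodes.

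Brown nuclei summed to 9362185 Female and 6938266 Male UMIs, white nuclei to 2986076 and 4122760. Doublets were called for 10.5% and 13.8% of brown nuclei, 7.18% and 14.5% of white nuclei and 4.56% and 6.78% of all other barcodes. Of 4287 barcode sequences that occurred in both libraries, 28 were brown in both. Of the markers of other cell types, 7 smooth muscle genes summed to 580 and 544 CPM in brown and 629 and 738 CPM in white nuclei. Of these 7, Myh11, Acta2 and Lmod1 belonged to the rule, which limited them in brown but not in white nuclei. A lower brown sum was thus partly fixed by the choice of nuclei. The 7 endothelial genes summed to 201 and 398 CPM in brown and 211 and 399 CPM in white nuclei, and 7 fibroblast genes to 139 and 223 CPM and to 141 and 241 CPM. The 7 macrophage genes summed to 24.4 and 72.1 CPM in brown and 9.71 and 51.2 CPM in white nuclei. None of these 28 markers was at 0 in brown nuclei. The 4 Schwann cell genes summed to 22.8 and 11.8 CPM in brown and 27.1 and 23.5 CPM in white nuclei. In all other barcodes they summed to 17.4 and 13.4 CPM. Of these genes, Sox10 was at 0 in both libraries and both kinds of adipocyte nuclei.

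Slc27a2, Fabp3, Esrrg and Me3, genes of fatty acid uptake and oxidative metabolism, were among the genes with the largest difference between brown and white nuclei. For each gene the log2 ratio of brown to white CPM was taken within a library after adding 5 CPM to both, which understates the ratio of low genes, and a gene was counted when at least 2-fold apart the same way in both libraries. Of 7796 genes measured (50 or more UMIs and 20 CPM in a class), 264 were higher in brown nuclei (3.39%) and 228 lower (2.92%). The sign was the same in both libraries for 5931 genes, and the median of all genes was 0.04.

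The 15 genes with the largest mean ratio outside the rule were Pitpnc1, Slc27a2, Nol4l, Kng2, Me3, Esrrg, Fabp3, Clic5, Coq8a, Rnf182, Cyp2b10, Impdh1, Gldn, Cabcoco1 and Gmpr. Pitpnc1, a phosphatidylinositol transfer protein, had 916 and 667 CPM in Female and Male brown nuclei against 28.5 and 28.4 CPM in white nuclei, a log2 difference of 4.78 and 4.33. It was found in 81.2% and 71.5% of brown and 10.3% and 9.04% of white nuclei. Slc27a2, a long-chain fatty acid transporter and acyl-CoA synthetase on chromosome 2 at 126552407 to 126588243, had 119 and 149 CPM in brown and 1.67 and 3.88 CPM in white nuclei. The brown values of both genes lay far above the white values in each library, and for Slc27a2 the log2 differences were 4.22 and 4.12.

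Esrrg, the nuclear receptor ERR gamma that drives oxidative genes, had 1863 and 1544 CPM in brown and 144 and 92.9 CPM in white nuclei, with UMIs in 91.7% and 89.3% of brown nuclei. Me3, a mitochondrial malic enzyme, had 235 and 147 CPM in brown and 6.03 and 9.22 CPM in white nuclei. Both were many times higher in brown nuclei of each library. Fabp3, which carries fatty acids inside oxidative cells, had 66.0 and 59.8 CPM in brown nuclei and 2 and 4 UMIs in white nuclei, a CPM ratio of 98.6 (interval 27.2 to 816) and 61.6 (23.9 to 227). Kng2, a kininogen, had 114 and 74.8 CPM in brown nuclei and 3 and 6 UMIs in white nuclei, a ratio of 114 (38.8 to 552) and 51.4 (23.5 to 141). The few white UMIs of these genes make the ratios imprecise, as the intervals show.

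Coq8a, a kinase-like protein of coenzyme Q synthesis, had 516 and 453 CPM in brown and 43.9 and 37.1 CPM in white nuclei, with log2 differences of 3.41 and 3.44. Impdh1, an enzyme of guanine nucleotide synthesis, had 150.1 and 146 CPM against 11.7 and 10.2 CPM. Both libraries gave nearly the same difference for these genes. Cyp2b10, a cytochrome P450, had no UMI in Female white nuclei and 20.6 CPM in Female brown nuclei, at least 20.5-fold higher taking a floor of 3 counts over the class. In the Male library it had 128 CPM in brown and 1.94 CPM in white nuclei. Fabp3, Coq8a, Nol4l and Gmpr are uncertain, since each overlaps another coding gene and the use of strand in counting is not stated.

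**Figure D3:**
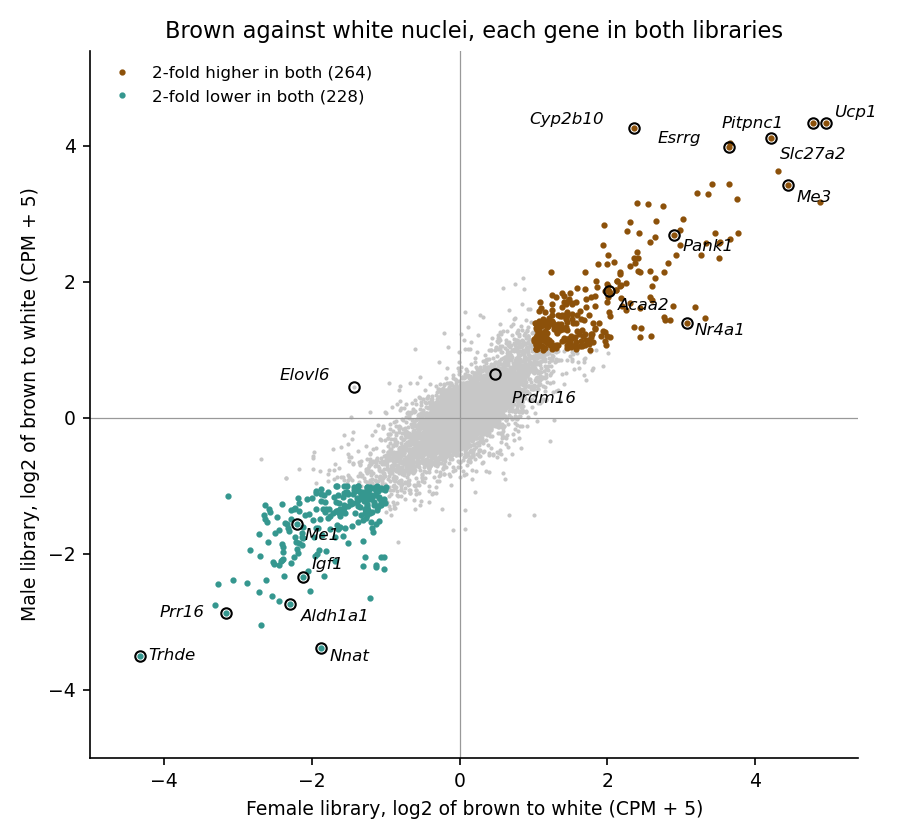
Log2 ratio of brown to white CPM (plus 5) for each of 7796 genes in the Female (x axis) and Male library (y axis), with genes at least 2-fold apart the same way in both coloured and some named. The 264 higher genes lie at the upper right and the 228 lower genes at the lower left.

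Promoter windows were searched for the motif AGGTCA, or its reverse complement TGACCT, the core sequence known to be bound by nuclear receptors such as PPAR and ERR proteins. Of the 15 genes named above as higher in brown nuclei, 5 had the motif, in 5 of their 21 windows. Pitpnc1, the first of them, is shown as a gene without it, and Slc27a2 and Kng2 as genes with it. Ucp1 is shown as a gene of the brown sum of the rule. These windows were chosen after the search. The RefSeq windows of GRCm38.p6 run from 250 bases before to 50 after an annotated start and are written 5′ to 3′ on the gene's strand, with the motif in capitals. The windows are Pitpnc1 (chr11:107470671-107470970, minus strand), Ucp1 (chr8:83290098-83290397, plus strand), Slc27a2 (chr2:126552774-126553073, plus strand) and Kng2 (chr16:23029052-23029351, minus strand). The motif begins at -14 from the start in Ucp1, at -220 in Slc27a2, as the reverse complement, and at -56 in Kng2.
Pitpnc1: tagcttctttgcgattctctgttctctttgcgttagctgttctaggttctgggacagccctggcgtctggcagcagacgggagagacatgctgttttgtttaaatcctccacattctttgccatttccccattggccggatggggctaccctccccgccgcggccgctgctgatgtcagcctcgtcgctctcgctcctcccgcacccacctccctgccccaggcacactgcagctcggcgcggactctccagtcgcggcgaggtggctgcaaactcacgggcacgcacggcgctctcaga
Ucp1: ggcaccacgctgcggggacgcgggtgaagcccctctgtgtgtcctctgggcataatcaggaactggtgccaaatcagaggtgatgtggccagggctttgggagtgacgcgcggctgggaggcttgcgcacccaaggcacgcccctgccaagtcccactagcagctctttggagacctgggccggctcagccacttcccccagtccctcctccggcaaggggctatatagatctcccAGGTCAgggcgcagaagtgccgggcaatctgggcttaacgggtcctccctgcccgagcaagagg
Slc27a2: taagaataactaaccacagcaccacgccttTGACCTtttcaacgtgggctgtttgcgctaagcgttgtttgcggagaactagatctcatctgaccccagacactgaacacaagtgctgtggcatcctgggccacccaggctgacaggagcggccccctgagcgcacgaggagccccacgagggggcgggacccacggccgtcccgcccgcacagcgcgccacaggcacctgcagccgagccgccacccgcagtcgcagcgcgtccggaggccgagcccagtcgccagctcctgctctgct
Kng2: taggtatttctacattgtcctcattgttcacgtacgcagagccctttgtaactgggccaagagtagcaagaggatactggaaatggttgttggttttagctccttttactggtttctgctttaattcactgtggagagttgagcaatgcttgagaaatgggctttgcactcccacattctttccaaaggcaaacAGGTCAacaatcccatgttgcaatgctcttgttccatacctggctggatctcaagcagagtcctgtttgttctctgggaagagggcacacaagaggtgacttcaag
On either strand the motif was found in 45 of 283 windows of the genes higher in brown nuclei (15.9%, with 196 of those genes matched to RefSeq by symbol) and in 20 of 209 windows of the lower genes (9.57%). It was found in 963 of 7950 windows of all measured genes (12.1%) and in 5340 of all 32851 windows (16.3%). The cAMP response element TGACGTCA, which contains neither of those runs, was found in 10 windows of the higher genes (3.53%), 2 of the lower genes (0.957%), 3.04% of the windows of measured genes and 1.79% of all windows. These are matches of letters, not binding sites.

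Among the thermogenic effectors, genes that carry out or feed heat production, 13 of 17 genes were measured, 8 of them 2-fold higher and 0 lower. Their median log2 difference was 1.28 beside 0.04 for all genes, and all 13 were above 0 in both libraries. The 13 include Pank1, the marker given above, which had the largest mean difference of the list at 2.80. The list is therefore not separate from that marker. Cox7a1, a subunit of cytochrome c oxidase found in muscle and brown fat, had 89.0 and 78.8 CPM in brown and 12.7 and 4.37 CPM in white nuclei. Letmd1, a mitochondrial protein that brown fat needs for heat production, had 180.2 and 129.9 CPM against 35.8 and 34.7 CPM. Otop1, a proton channel, had 64.7 and 71.9 CPM against 26.8 and 29.8 CPM. These genes were higher in brown nuclei of both libraries without overlap, though Otop1 was under 2-fold with nuclei thinned, on split UMIs, without nuclei holding other markers and with a pseudocount of 20 CPM. Acot11, a thioesterase of brown fat that overlaps Fam151a, had 927 and 454 CPM against 237 and 73.7 CPM. Dio2, the deiodinase that makes active thyroid hormone, reached 35.4 and 48.9 CPM against 19.8 and 27.9 CPM and was not 2-fold apart. Elovl3, an elongase induced by cold in brown fat, was below the minimum level, with 139 and 42 UMIs in brown nuclei.

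The genes of mitochondrial fuel burning leaned to the brown side as lists. In mitochondrial fatty acid oxidation, 16 of 18 genes were measured, 8 of them 2-fold higher and 0 lower, with a median log2 difference of 1.05 and all 16 above 0 in both libraries. Acaa2, the thiolase of the last step, had 395 and 406 CPM in brown and 93.4 and 107 CPM in white nuclei. Slc25a20, which carries acylcarnitine across the inner membrane, had 408 and 384 CPM against 174 and 171 CPM. Hadhb, a subunit of the trifunctional protein, had 321 and 353 CPM against 120.2 and 119.8 CPM. All were higher in both libraries, Acaa2 by the widest margin of these.

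In the citric acid cycle, 19 of 19 genes were measured, 7 of them 2-fold higher and 0 lower, with a median of 0.98. Idh3a, of isocitrate dehydrogenase, had 217 and 232 CPM in brown and 63.6 and 58.9 CPM in white nuclei. Sucla2, of the ATP-forming succinyl-CoA ligase, had 305 and 332 CPM against 79.4 and 65.2 CPM. The pyruvate dehydrogenase subunits were not 2-fold apart, with log2 differences of -0.23 and 0.32 for Pdhb and 0.11 and 0.44 for Pdha1. Of the nuclear genes of the respiratory chain, 22 of 23 genes were measured, 8 of them 2-fold higher and 0 lower, with a median of 1.01 and all 22 above 0 in both libraries. Uqcrc1, of complex III, had 184 and 172 CPM against 64.6 and 58.0 CPM, and Cycs, cytochrome c, 89.6 and 83.7 CPM against 34.8 and 22.8 CPM. Of the genes encoded in the mitochondrion, 9 of 13 genes were measured, 0 of them 2-fold higher and 0 lower, with a median of 0.71. These transcripts come from outside the nucleus, and their median share of UMIs was 0.131% and 0.134% in brown and 0.0707% and 0.0749% in white nuclei.

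**Figure D4:**
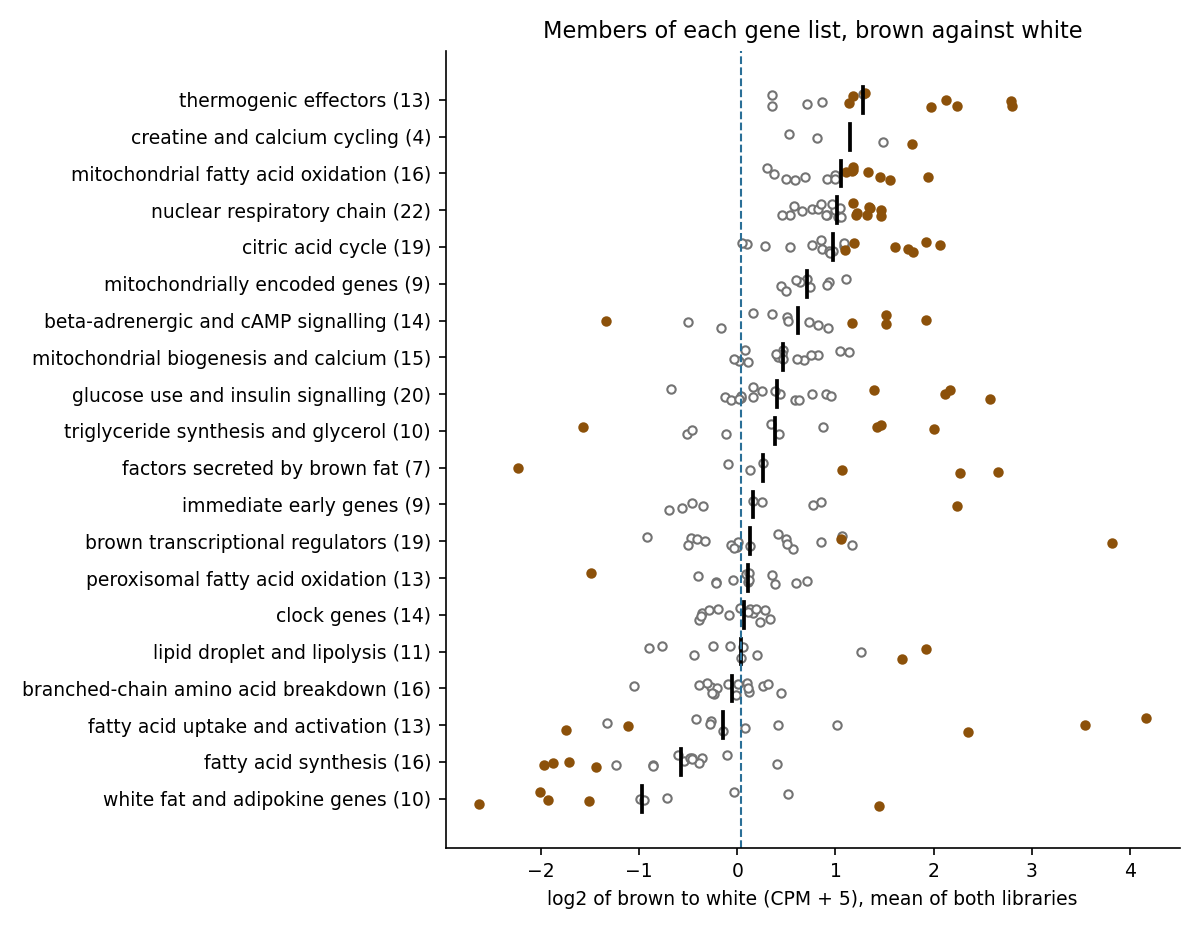
Log2 ratio of brown to white (CPM plus 5), mean of both libraries (x axis), for each measured member of the gene lists (number measured in brackets), with filled points 2-fold apart in both libraries, a black bar at the list's median and a dashed line at the all-gene median of 0.04. The medians of the thermogenic, oxidation, citric acid cycle and respiratory chain lists lie between 0.98 and 1.28, those of the fatty acid synthesis and white fat lists at -0.57 and -0.97.

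Fatty acid synthesis leaned the other way. Here 16 of 16 genes were measured, 0 of them 2-fold higher and 4 lower, the median was -0.57, and 1 gene was above 0, Acacb, the acetyl-CoA carboxylase at the mitochondrial surface. Me1, the cytosolic malic enzyme that makes NADPH, had 825 and 243 CPM in brown and 3829.8 and 725 CPM in white nuclei. Slc25a1, which exports citrate from mitochondria, had 206 and 96.3 CPM against 719.7 and 211 CPM. The mitochondrial Me3 was thus higher and the cytosolic Me1 lower in brown nuclei of both libraries. Fads1 and Fads2, desaturases of polyunsaturated fatty acids, were also lower, with log2 differences of -2.32 and -1.62 and of -2.17 and -1.26. The synthesis enzymes Fasn and Acaca were not 2-fold apart, with -0.55 and -0.17 and with -0.62 and -0.46.

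In fatty acid uptake and activation, 13 of 15 genes were measured, 3 of them 2-fold higher and 2 lower, with a median of -0.14. Members of 1 transporter family lay on both sides, Slc27a2 being higher and Slc27a1 lower, with 357 and 495 CPM in brown and 1430.0 and 1417 CPM in white nuclei. Acsl5, an acyl-CoA synthetase that overlaps Zdhhc6, had 387 and 108 CPM against 57.6 and 22.3 CPM. Cd36, Lpl, Fabp4 and Acsl1, which adipocytes of either kind use, were not 2-fold apart in either library. In triglyceride and glycerol metabolism, 10 of 11 genes were measured, 3 of them 2-fold higher and 1 lower, with a median of 0.38. The higher genes handle glycerol. Gk, glycerol kinase, had 115 and 196 CPM against 22.8 and 49.2 CPM, and Aqp7, the glycerol channel, 89.1 and 137 CPM against 29.8 and 45.8 CPM. Gpd1, glycerol-3-phosphate dehydrogenase, had 2124 and 1895 CPM against 839 and 657 CPM.

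Of the lipid droplet and lipolysis genes, 11 of 12 genes were measured, 2 of them 2-fold higher and 0 lower, with a median of 0.03. Plin5, which ties droplets to mitochondria, had 102 and 179 CPM in brown and 17.4 and 56.3 CPM in white nuclei, and Plin3 104 and 108 CPM against 28.1 and 31.5 CPM. The lipases were near 0, with log2 differences of 0.05 and 0.01 for Pnpla2 and -0.08 and -0.07 for Lipe. In peroxisomal oxidation, 13 of 15 genes were measured, 0 of them 2-fold higher and 1 lower, with a median of 0.11. The lower gene was Abcd2, a transporter of very long fatty acids, with 94.5 and 119 CPM against 303 and 311 CPM.

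Of the genes of glucose use and insulin signalling, 20 of 21 genes were measured, 4 of them 2-fold higher and 0 lower, with a median of 0.41. Pdk4, the kinase that shuts pyruvate dehydrogenase, had 619 and 559.8 CPM in brown and 111 and 80.5 CPM in white nuclei. Ldhb, lactate dehydrogenase B, had 190.1 and 185 CPM against 38.2 and 37.8 CPM, and hexokinase Hk1 47.4 and 40.8 CPM against 6.03 and 6.55 CPM. The glucose transporter Slc2a4 was not 2-fold apart, with log2 differences of -0.06 and 0.57. None of 16 measured genes of branched-chain amino acid breakdown, 14 clock genes or 15 genes of mitochondrial biogenesis and calcium was 2-fold apart, with medians of -0.05, 0.07 and 0.46.

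The receptors of noradrenaline differed from each other. Adra1a, the alpha-1A receptor, had 691 and 863 CPM in brown and 210.3 and 191 CPM in white nuclei, and was found in 89.2% and 87.7% of brown nuclei. Adrb3, the beta-3 receptor that starts lipolysis and heat production, had 371 and 411 CPM in brown and 615 and 501 CPM in white nuclei. Adrb1 had 67.2 and 49.3 CPM against 35.2 and 30.6 CPM, and neither beta receptor was 2-fold apart. Downstream, Gnas, the stimulatory G protein, had 859 and 593 CPM against 245 and 249 CPM, and Akap1, the mitochondrial anchor of protein kinase A, 525 and 506 CPM against 198 and 159.6 CPM. Adcy5, an adenylyl cyclase, was lower in brown nuclei, with 60.9 and 73.2 CPM against 166 and 187 CPM. In this pathway, 14 of 18 genes were measured, 4 of them 2-fold higher and 1 lower, with a median of 0.62.

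Of the transcription factors known from brown fat, 19 of 24 genes were measured, 2 of them 2-fold higher and 0 lower, with a median of 0.13. The higher ones were Esrrg and Esrra, the latter with 296 and 251 CPM in brown and 139 and 118 CPM in white nuclei and overlapping Trmt112. Esrra was near the 2-fold limit and under it in 1 or both libraries with nuclei thinned, without shared barcodes, without nuclei holding other markers and with a pseudocount of 20 CPM. Prdm16, a regulator of brown identity, had 839.7 and 845 CPM in brown and 599 and 538 CPM in white nuclei, and 949 and 889 CPM in all other barcodes. It therefore did not set brown nuclei apart in these libraries. Ppargc1a, a coactivator of mitochondrial genes, had 274 and 283 CPM against 145 and 101.1 CPM, and Ebf2, an early factor of brown fat, 1861 and 1864 CPM against 871 and 1225 CPM. Each was 2-fold higher in 1 of the libraries, Ppargc1a in the Male and Ebf2 in the Female library. Zic1, a marker of interscapular brown fat, had 1 and 0 UMIs in brown nuclei. Hoxc8, Hoxc9 and Hoxc10, which mark posterior fat depots, had 0 UMIs in brown nuclei of both libraries, where 3 counts would be 0.320 CPM (Female) and 0.432 CPM (Male).

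Of the white fat and adipokine genes, 10 of 18 genes were measured, 1 of them 2-fold higher and 4 lower, with a median of -0.97. The lower genes were Cfd, Nnat, Rbp4 and Ccdc80, and the higher one was Fgf1. Cfd, complement factor D, had 472 and 380.4 CPM in brown and 2148 and 1377 CPM in white nuclei. Lep, leptin, had 65.6 and 96.3 CPM against 157 and 169.8 CPM, with log2 differences of -1.20 and -0.79. The 15 genes outside the rule that were lowest in brown against white nuclei were Prr16, Trf, Gsta3, Slc25a10, Chst1, Nnat, Cachd1, Ednra, Aldh1a1, Gpt2, Trabd2b, Cmklr1, Mfng, Colec12 and Sult1a1. Trf, transferrin, had 4.91 and 7.35 CPM in brown and 90.4 and 62.1 CPM in white nuclei. Slc25a10, the dicarboxylate carrier of the mitochondrion, had 22.6 and 14.3 CPM against 199 and 99.0 CPM. Aldh1a1, which makes retinoic acid, had 7.69 and 16.7 CPM against 57.3 and 140.0 CPM. Each was lower in brown nuclei of both libraries without overlap. So were Ednra, the endothelin A receptor, with 8.22 and 3.46 CPM against 67.0 and 49.7 CPM, and Cmklr1, the chemerin receptor, with 20.7 and 12.7 CPM against 163 and 66.9 CPM.

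Among factors secreted by brown fat, 7 of 15 genes were measured, 3 of them 2-fold higher and 1 lower, with a median of 0.26. Nrg4, neuregulin 4, was close in both kinds, with 1775 and 1605 CPM in brown and 1601 and 1484 CPM in white nuclei. S100b, which stimulates sympathetic nerve growth and overlaps Dip2a, had 304 and 196 UMIs in brown and 3 and 1 in white nuclei, a CPM ratio of 32.3 (interval 11.0 to 158) and 116 (20.7 to 4623). Angptl4, an inhibitor of lipoprotein lipase, had 160.4 and 323 CPM against 74.3 and 152 CPM, and was under 2-fold in the same settings as Otop1. Igf1, insulin-like growth factor 1, was lower in brown nuclei, with 139 and 97 CPM against 622 and 513 CPM. Of the creatine and calcium cycling genes, 4 of 13 genes were measured, 1 of them 2-fold higher and 0 lower, and the mitochondrial creatine kinases Ckmt1 and Ckmt2 had 1 and 0 and 4 and 0 UMIs in brown nuclei.

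Against all other barcodes, genes of adipocytes of either kind led. Of 8901 genes measured, 1503 were 2-fold higher in brown nuclei (16.9%) and 1826 lower (20.5%), with an all-gene median of 0.02. The 10 highest outside the rule were Prkar2b, Nrg4, Car3, Pparg, Slc36a2, Dgat2, Gpd1, Adra1a, Pck1 and Pnpla3. Prkar2b, a regulatory subunit of protein kinase A, had 1847 and 2147 CPM in brown nuclei and 14.7 and 18.0 CPM in all other barcodes. Pparg, the master regulator of fat cells, had 4381 and 4175 CPM against 55.6 and 46.8 CPM, and 99.7% and 99.4% of brown nuclei held a UMI. Of the 10 genes, Gpd1 and Adra1a were also 2-fold higher in brown than in white nuclei. By list, 13 of 13 thermogenic effectors, 16 of 17 genes of mitochondrial fatty acid oxidation and 18 of 19 citric acid cycle genes were 2-fold higher in brown nuclei than in all other barcodes. So were 11 of 11 lipid droplet and lipolysis genes, 9 of 9 of triglyceride and glycerol metabolism and 12 of 16 of fatty acid synthesis. The medians were 3.73, 2.89 and 2.36 for the first 3 lists and 3.68, 4.52 and 4.34 for the latter 3. This contrast thus did not single out the heat and oxidation lists.

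Brown nuclei varied among themselves in Ucp1. The median nucleus held 1 Ucp1 UMI (Female) or 0 (Male), the 90th percentile 6 and 4, and the highest nucleus 34 and 28. At 1000 UMIs per nucleus, Cidea was found in 73.0% and 70.5% of brown nuclei, Ppara in 81.1% and 81.6%, Ppargc1b in 88.3% and 79.3% and Pank1 in 57.0% and 53.1%. Nuclei were then grouped by their Ucp1 UMIs before thinning. Between nuclei with none (568 Female and 482 Male) and those with 3 or more (293 and 154), Cyp2e1, a white rule gene, differed from a mean of 0.482 to 0.137 UMIs at 1000 UMIs per nucleus (Female) and from 0.598 to 0.279 (Male). Esrrg differed from 1.59 to 1.99 and from 1.24 to 1.91, less than its spread between nuclei (SD 1.81 and 1.59 in nuclei without Ucp1). The Cyp2e1 differences were also below its spread (SD 0.924 and 1.08 in nuclei without Ucp1), and since Ucp1 and Cyp2e1 both entered the rule they are a description of the choice. Adipoq was close, with 0.317 and 0.307 in Female and 0.344 and 0.351 in Male nuclei. Median depth before thinning was also higher in nuclei with 3 or more Ucp1 UMIs, 8652 against 6485 UMIs for Female and 8900 against 7068 for Male nuclei, and its part in these values was not tested.

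Between the libraries, brown nuclei differed in few genes, with Egr1, Nr4a1 and genes of fatty acid synthesis on the Female side and Zbtb16 and Fkbp5 on the Male side. Of 7674 genes measured, the Female level was at least 2-fold above the Male level for 41 (0.534%) and the Male level above the Female level for 45 (0.586%), with an all-gene median of -0.05. In white nuclei, which summed to fewer UMIs, 143 of 7617 were Female-higher (1.88%) and 116 Male-higher (1.52%). Of 29 Female-higher brown genes measured in white nuclei, 21 were Female-higher there, out of 102 such white genes. Of 39 Male-higher brown genes, 22 were Male-higher there, out of 92, and none was 2-fold apart the opposite way. Both comparisons come from the same 2 libraries.

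Egr1, a transcription factor induced within minutes by many stimuli, had 608 and 21 UMIs in Female and Male brown nuclei (64.9 and 3.03 CPM), a CPM ratio of 21.5 (13.9 to 34.9). It had 141 and 5.09 CPM in white nuclei and 23.2 and 21.9 CPM in all other barcodes, where the libraries were close. Nr4a1, a nuclear receptor that adrenergic signals induce in brown fat, had 350.1 and 54.9 CPM in brown nuclei, a ratio of 6.38 (5.73 to 7.11), 37.2 and 17.7 CPM in white nuclei and 45.4 and 49.5 CPM in all other barcodes. A UMI of it was found in 40.1% and 24.8% of brown nuclei, with up to 54 in a Female and 10 in a Male nucleus. Of 6 immediate early genes measured in brown nuclei, 3 were 2-fold higher in the Female library (Egr1, Nr4a1 and Junb) and none in the Male library, with all 6 above 0 and a median of 0.94. White nuclei had this lean as well, with 6 of 10 genes 2-fold higher in the Female library, 0 in the Male library and a median of 1.07. In brown nuclei Fos was below the minimum level, with 14.1 and 1.59 CPM.

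Of 14 fatty acid synthesis genes measured, 4 were 2-fold higher in Female brown nuclei (Me1, Acss2, Acly and Slc25a1) and none in Male ones, with 13 above 0 and a median of 0.78. White nuclei had this lean too, with 9 of 16 genes 2-fold higher in the Female library, 0 in the Male library and a median of 1.09. Acss2, acetyl-CoA synthetase, had 1548 and 486 CPM in Female and Male brown nuclei and 2944 and 853 CPM in white nuclei. Acly, ATP citrate lyase, had 2017 and 959 CPM in brown nuclei. Female values were above Male values for both genes in both kinds of nuclei. Scd1, a desaturase, lay the other way with 1600.4 and 2198 CPM. Acsl3, an acyl-CoA synthetase, was Female-higher too, with a log2 difference of 1.29. Me1 (86581371 to 86695953) and Pgm3 (86554377 to 86571842), a mutase of amino sugar synthesis, lie next to each other on chromosome 9, and Pgm3 had 97.4 and 20.5 CPM. Pgm3, Acsl3, Acsl5 and Acss2 overlap other coding genes and are uncertain. Ucp1 had a log2 difference of 0.54 and Cidea of 0.15, and of 13 thermogenic effectors Acot11 alone was 2-fold apart. No gene of mitochondrial fatty acid oxidation, the citric acid cycle or the respiratory chain was 2-fold apart, with medians of -0.02, 0.19 and 0.09.

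**Figure D5:**
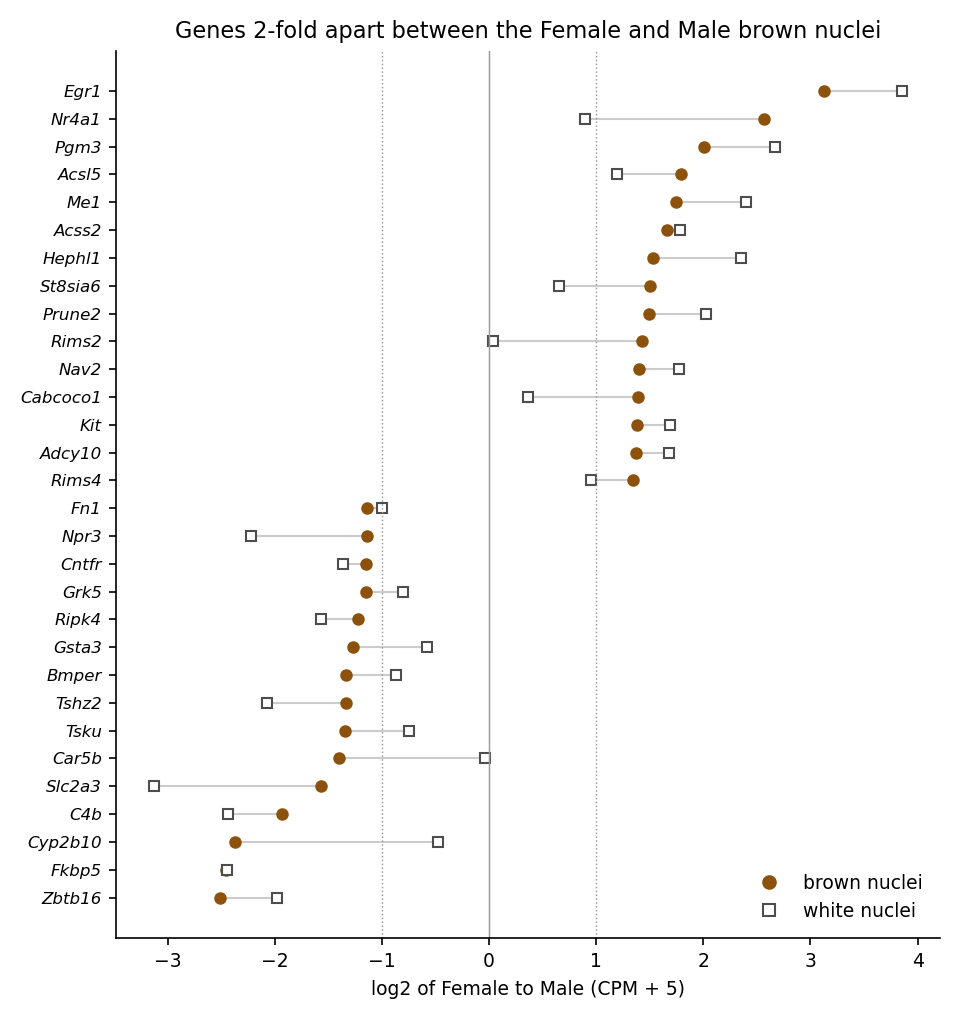
Log2 ratio of Female to Male CPM (plus 5) in brown (filled circles) and white nuclei (open squares) for the named genes at least 2-fold apart in brown nuclei, with dotted lines at 2-fold. Egr1 lies at 3.12 in brown and 3.86 in white nuclei and Car5b at -1.40 and -0.04, and the white values of St8sia6, Rims2, Cabcoco1 and Cyp2b10 come from genes below the minimum level there.

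On the Male side, Zbtb16, a zinc finger factor, had 151 and 885 CPM in Female and Male brown nuclei, and Fkbp5, a co-chaperone of the glucocorticoid receptor, 41.6 and 251 CPM. Both are known to be induced by glucocorticoids. They also differed outside adipocytes, with 393 and 1094 CPM for Zbtb16 and 81.1 and 291 CPM for Fkbp5 in all other barcodes. Cyp2b10 had 20.6 and 128 CPM in brown nuclei, a log2 difference of -2.37. Car5b, a mitochondrial carbonic anhydrase, had 43.4 and 123 CPM in brown and 296 and 304 CPM in white nuclei, so that the libraries were apart in brown nuclei and close in white ones. That difference between the kinds was not tested. Tsku, a secreted protein, had 19.97 and 58.4 CPM, and Bmper, a regulator of BMP signals, 67.2 and 177 CPM. C4b, complement component 4, had 10.1 and 53.0 CPM and is uncertain because of its near-identical copy C4a.

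Endothelial, fibroblast and macrophage markers were higher in Male than in Female brown nuclei, by the sums given above, and 17 Male-higher genes that were far higher in another class were left unnamed. Nuclei with 2 or more UMIs over endothelial, fibroblast, macrophage, T or NK, B lineage, mesothelial and pericyte markers were then left out. Smooth muscle markers, with a UMI in 78.1% of Female and 77.1% of Male brown nuclei, were not counted. This setting, chosen after the data were seen, left 708 Female and 431 Male brown nuclei. Female-higher genes then numbered 71 and Male-higher genes 50. Egr1, Nr4a1, Me1 and Acss2 stayed 2-fold apart, with log2 differences of 3.07, 2.53, 1.68 and 1.66, as did Zbtb16, Fkbp5, Cyp2b10 and Car5b with -2.81, -2.38, -2.23 and -1.29. Junb did not, at 0.91, and Fn1 and Ripk4 were below the minimum level.

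Reporter UMIs were few, with neither reporter in 49.5% of Female and 32.9% of Male brown nuclei and both in 12.0% and 12.2%. Of brown nuclei with a single reporter, GFP made up 51.0% (46.3 to 55.7) of Female and 42.7% (38.2 to 47.3) of Male ones. The shares were 48.0% and 43.4% in white nuclei, 58.4% and 60.5% in smooth muscle and 10.9% and 12.8% in endothelial barcodes. Free reporter RNA can add GFP or tdTomato UMIs to any nucleus, so these are shares of nuclei with a UMI and not of neural crest descent.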

How the data were processed

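Raw UMI counts per gene and barcode, 1 matrix per library, were used as deposited by the authors. Cell Ranger 7.0.0 wrote the matrices, per the file headers. The submitters' processing notes name STAR, Cell Ranger, Seurat 4.4.0 and the GRCm38 build. Annotation version, strand setting and intron counting were not given in the sources used here. In all, 79294181 Female and 77989549 Male UMIs were counted. The labels mention a technical split of each pool, which the barcodes do not show.

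Barcodes were sorted by the sums given in the report. Smooth muscle and endothelial barcodes were taken from those neither brown nor white. They held 5 or more UMIs over the smooth muscle sum, or over Pecam1, Cdh5, Ptprb and Flt1. That sum also had to exceed the shared adipocyte sum and the sum of the other class. UMIs were summed per class and library. CPM came from these sums, with a pseudocount of 5 CPM, over genes with 50 or more UMIs and 20 CPM in a class compared. No p-value was computed. Shares carry exact Clopper-Pearson and counts exact Poisson 95% intervals. The members, gene lists and tests were chosen with earlier results of these data known. Named genes were up to 15 each way (10 against other barcodes) with the largest difference. Against white nuclei or other barcodes they also needed 100 or more UMIs, while between the sexes only the 50 UMIs of measured genes applied. Left out were genes of the rule, gene models without a symbol, mitochondrial, Xist, Tsix and Y genes. Between the sexes, any gene whose CPM was below 0.1 of that in its highest class in both libraries was left out too. From each list, the 6 members with the most UMIs and those 2-fold apart could be named. Other list members named, such as Dio2, Elovl3, Zic1 and the Hoxc genes, were chosen after their values were seen. Doublets were kept, and called with scrublet (expected rate 0.08) in scanpy 1.11.5 for an alternative. Gene positions came from a GENCODE annotation of GRCm38, which placed 54723 of 54754 features. Beside the genes marked in the report, Sucla2, Nrg4, Nnat, Junb, Gnas, Pdha1, Fgf1, Sult1a1 and Grk5 overlap other coding genes and are uncertain. So do Trf and Cachd1, and Plin4 and Slc7a10 of the rule. 1 list member is not reported here. The computation was tested on simulated data. Versions were 3.11.15 (Python), 1.17.1 (scipy), 2.4.6 (numpy), 3.10.9 (matplotlib) and 2.3.3 (pandas).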

Additional observations from a re-analysis of the deposited data

Results flagged for a closer look

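Among named and listed genes, 3 had a brown minus white difference that was at least 2-fold in 1 library and of the opposite sign in the other, and 1 more gene was 2-fold apart in opposite directions. Smaller differences of opposite sign are not given here, and the gaps between the libraries were not tested. Elovl6, a fatty acid elongase, had a brown minus white log2 difference of -1.43 (Female) and 0.46 (Male), a gap of -1.89. Fos had -1.22 and 0.08, a gap of -1.30, and Zfp36, an RNA-binding protein that shortens the life of inflammatory transcripts, -1.002 and 0.07, a gap of -1.07. The level of Fos in Male brown nuclei was below the pseudocount of 5 CPM, so its sign in that library is uncertain. Pcdh11x, a protocadherin, had 1.002 and -1.43, a gap of 2.44, and was the 1 gene of 7796 that was 2-fold apart in opposite directions. It was picked out after its values were seen.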

How the results depend on the processing

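No paired analysis of the sexes was possible because the labels give 1 library per sex and no replicate numbers. Brown and white nuclei were compared within each library. Of 94 named or listed genes 2-fold apart between brown and white nuclei, 68 stayed so in every setting where they were measured, as did 17 of 36 between the sexes, and none reversed. Of genes with values in the report, the brown against white calls of Esrra, Otop1, Angptl4, Cycs, Slc25a1, Fads1, Fads2 and Fgf1 were lost with a pseudocount of 20 CPM, those of Esrra, Otop1, Angptl4 and Fgf1 with thinned nuclei, and that of Nnat with the brown sum at least 3 times the white. Between the sexes, Acot11, Slc25a1, Acsl3, Junb and Tsku were lost with a pseudocount of 20 CPM, Acot11 and Slc25a1 with the larger margin, and Acot11 without shared barcodes. Junb was also lost with thinned nuclei, and Junb and Slc25a1 in brown nuclei without white UMIs.

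Brown nuclei made up 5.59% (Female) and 3.56% (Male) of barcodes with the brown sum at least 3 times the white, 5.94% and 3.88% without doublet calls, and 3.87% of the Male library without shared barcodes. With a pseudocount of 20 CPM, 147 genes were higher and 116 lower in brown than in white nuclei. Within 1 library alone, 375 and 437 were higher and 288 and 371 lower, the larger counts in the Female library. Choosing the nuclei on a random 50% of UMIs and measuring on the rest gave 270 and 223. Between the sexes, Female-higher genes numbered 18 with a pseudocount of 20 CPM, 62 without a CPM minimum, 71 without nuclei holding other markers and 65 in brown nuclei without white UMIs. Male-higher genes numbered 75 with the brown sum at least 3 times the white, 80 with a pseudocount of 1 CPM, 18 with 20 CPM, 20 with 200 UMIs and 50 CPM, and 106 in brown nuclei without white UMIs. The last setting and the removal of nuclei with other markers were chosen after the data were seen. The immediate early gene median between the sexes was 1.05 and 0.67 with 1 and 20 CPM, 0.65 without a CPM minimum, 1.71 with 200 UMIs and 50 CPM and 0.84 without white UMIs. The GFP share of Female brown nuclei with 1 reporter was 55.7% at 1000 UMIs. Ucp1 was found in 30.2% and 22.5% of brown nuclei at 2000 UMIs and in 51.7% and 44.0% without thinning, since deeper nuclei show more of a gene. The cause of the other shifts was not tested.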
